A study of Glycine max and Zea mays with 6 samples.

Results

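The data are chromatin immunoprecipitation and sequencing (ChIP-seq) profiles of 2 histone marks from the leaves of soybean (Glycine max, William82). Trimethylation of histone H3 at lysine 4 (H3K4me3) was given by the authors as a list of narrow peaks, and trimethylation at lysine 36 (H3K36me3) as a list of broad regions. These are 2 of the 6 samples of the series. The leaves were the 2nd and 3rd of plants grown in soil for about 10 days, kept at 25 °C in cycles of 16 h light and 8 h dark, and the labels name no treatment. All peaks and regions on chromosomes Gm01 to Gm20 were taken: 51142 of 51233 H3K4me3 peaks and 32195 of 32245 H3K36me3 regions. The others lie on sequences named as scaffolds.

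In plants H3K4me3 is known to mark the 5′ part of transcribed genes, next to the site where transcription starts. H3K36me3 is laid down as RNA polymerase II moves along a gene, and is known as a mark of the gene body. A region of H3K36me3 can therefore be read against the H3K4me3 peak it holds: how many peaks there are, at which place in the region, and how far the region runs on from them.

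Peaks had a median length of 860 bp (quartiles 423 and 1214 bp) and covered 45.0 Mb. Regions had a median length of 2400 bp (quartiles 1400 and 3800 bp) and covered 99.4 Mb. Each mark had 1 library, so no value has a replicate check and no test between samples was possible. Shares are given with exact (Clopper-Pearson) 95% intervals and medians with 95% order-statistic intervals. Both cover counting error alone, and neighbouring regions are not independent. The lists hold positions without a score, so the read depth behind a peak is unknown and a region without a peak is a region without a call. Peaks were at least 301 bp apart and regions at least 800 bp apart in the deposited lists, and region ends lie on a grid of 200 bp, so distances under 200 bp are finer than that grid.

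Most H3K36me3 regions held a single H3K4me3 peak. Counted from an overlap of 1 bp, 21179 regions held 1 peak (65.8%, interval 65.3 to 66.3), 3308 held 2 peaks (10.3%, interval 9.95 to 10.6) and 335 held 3 or more (1.04%, interval 0.933 to 1.16). The largest number was 6, in 1 region. No peak was found in 7373 regions (22.9%, interval 22.4 to 23.4). Of the 24822 regions with any peak, 85.3% had exactly 1 (interval 84.9 to 85.8).

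The number of peaks changed little over a wide range of region lengths. The mean was 0.540 peaks per region under 1000 bp, 0.820 at 1000 to under 2000 bp and 0.955 at 2000 to under 3000 bp. From 3000 bp on it stayed near 1, with 1.00 at 3000 to under 4000 bp, 1.02 at 6000 to under 8000 bp and 0.951 at 10000 bp or more. The density of peaks was accordingly lower in longer regions, with 0.581 per kb at 1000 to under 2000 bp and 0.0694 per kb at 10000 bp or more.

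Regions without a peak were common at both ends of the length range. Their share was 46.4% under 1000 bp (interval 44.7 to 48.0), 15.6% at 3000 to under 4000 bp (interval 14.6 to 16.7) and 28.1% at 10000 bp or more (interval 25.0 to 31.4). Regions with 2 or more peaks became more frequent with length, being 0.411% under 1000 bp, 7.90% at 1000 to under 2000 bp and 13.0% at 2000 to under 3000 bp. Beyond that the share grew slowly, to 15.1% at 4000 to under 6000 bp and 18.6% at 10000 bp or more (interval 15.9 to 21.5). Even in the longest class, 74.2% of the regions that had a peak had a single one (interval 70.4 to 77.8).

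**Figure D1:**
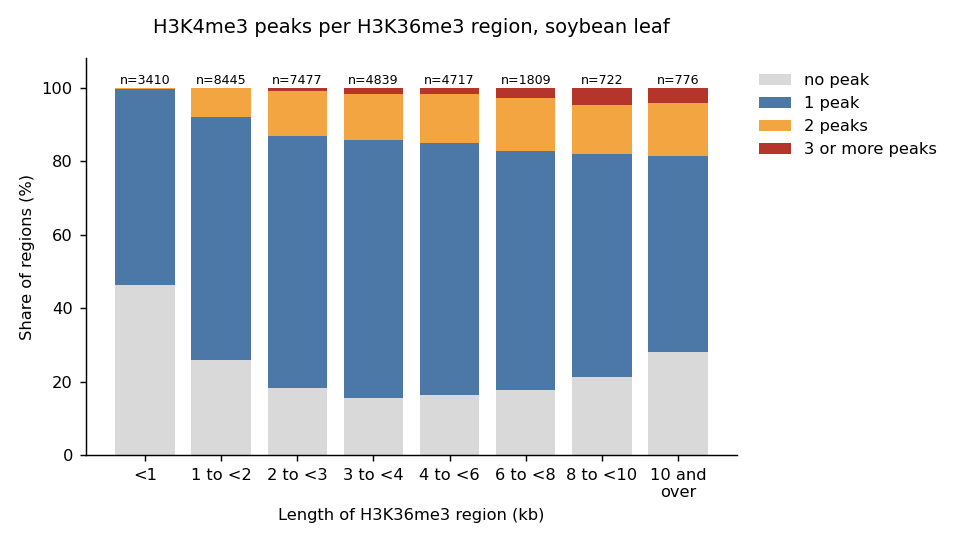
Share of H3K36me3 regions (%, vertical axis) with 0, 1, 2 or 3 or more H3K4me3 peaks, by region length in kb (horizontal axis), with the number of regions above each bar. The single-peak share is the largest part of every bar, 53.2% to 70.1%, and the share without a peak is lowest, 15.6%, at 3 to under 4 kb.

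The reach of a region was measured in the 21179 single-peak regions, as the distance from each edge of the peak to the end of the region on that side. A negative reach means that the peak stuck out past the region. The smaller of the 2 values is called the shorter reach and the other the longer reach. By this definition the shorter reach, the peak and the longer reach add up to the length of the region.

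On its short side the region ended where the peak ended. The median shorter reach was 2 bp (interval 1 to 4, quartiles -71 and 78 bp), and 84.7% of the regions had a peak edge and a region end within 200 bp of each other on that side (interval 84.2 to 85.1). The median longer reach was 1196 bp (interval 1168 to 1227, quartiles 264 and 2609 bp). A longer reach over 500 bp was found in 68.6% of the single-peak regions (interval 67.9 to 69.2). In those of 3000 bp or more the peak typically sat near 1 end, and the H3K36me3 ran on from it in a single direction (median longer reach 2998 bp). Under 2000 bp the median longer reach was 114 bp, so peak and region largely coincided. The overall medians depend on which lengths are in the lists: with the longer 50% of each list they were 34 and 2561 bp.

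Longer regions differed from shorter ones on the long side. From 2000 bp on, the median shorter reach stayed between 13.5 and 49 bp: it was 13.5 bp at 2000 to under 3000 bp, 37 bp at 4000 to under 6000 bp and 43.5 bp at 10000 bp or more. The median longer reach over the same 3 classes was 1077 bp, 3369 bp and 10928 bp. Peak length had a plateau as well, with a median of 1224 bp at 2000 to under 3000 bp and 1190 bp at 10000 bp or more. Across the 13369 single-peak regions of 2000 to under 10000 bp, a straight-line fit gave 982 bp of longer reach, 22.2 bp of shorter reach and -4.13 bp of peak for each added 1000 bp of region. Among the 414 single-peak regions of 10000 bp or more the same fit gave 1010 bp, 0.872 bp and -11.3 bp. The 3 parts share the region length by definition, so these slopes describe how the length was divided and are no test.

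**Figure D2:**
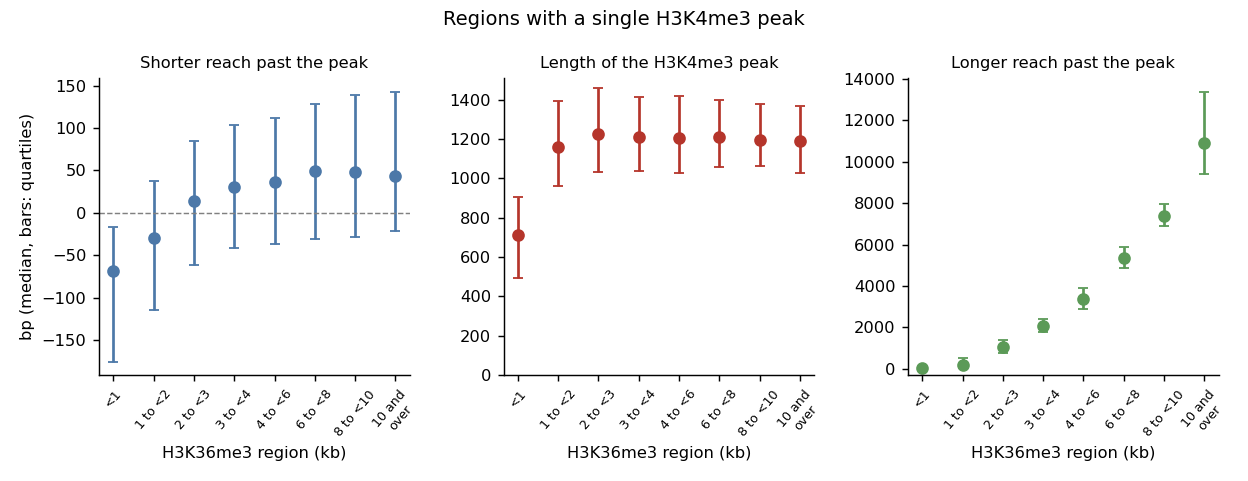
Median (points) and quartiles (bars) in bp of the shorter reach, the H3K4me3 peak length and the longer reach, left to right, by length of the H3K36me3 region in kb, for single-peak regions. The vertical scales differ. The shorter reach stays below 50 bp and the peak near 1200 bp from 2 kb on, while the median longer reach climbs to 10928 bp.

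In regions under 2000 bp the picture was another one, because peak and region were of like size. Under 1000 bp the peak was longer than the region in 60.2% of cases (interval 57.9 to 62.4) and stuck out past both ends in 36.03% (interval 33.8 to 38.3). At 1000 to under 2000 bp these shares were 26.7% and 13.7%, and at 3000 to under 4000 bp they were 0.530% and 0.265%. Here added region length went partly to the peak: in the 7396 single-peak regions under 2000 bp the fit gave 507 bp of peak, 401 bp of longer reach and 92.5 bp of shorter reach for each added 1000 bp. Peaks in regions under 1000 bp had a median length of 713 bp.

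The place of the peak within the region showed the same change. The midpoint of the peak lay in the middle 20% of the region in 51.8% of single-peak regions at 1000 to under 2000 bp (interval 50.5 to 53.1), in 13.8% at 2000 to under 3000 bp and in 3.65% at 3000 to under 4000 bp. At 4000 bp and over each class had between 1.10% and 2.28% there. In regions of 10000 bp or more, 47.1% of the midpoints were in the leftmost 10% of the region and 45.7% in the rightmost 10%.

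**Figure D3:**
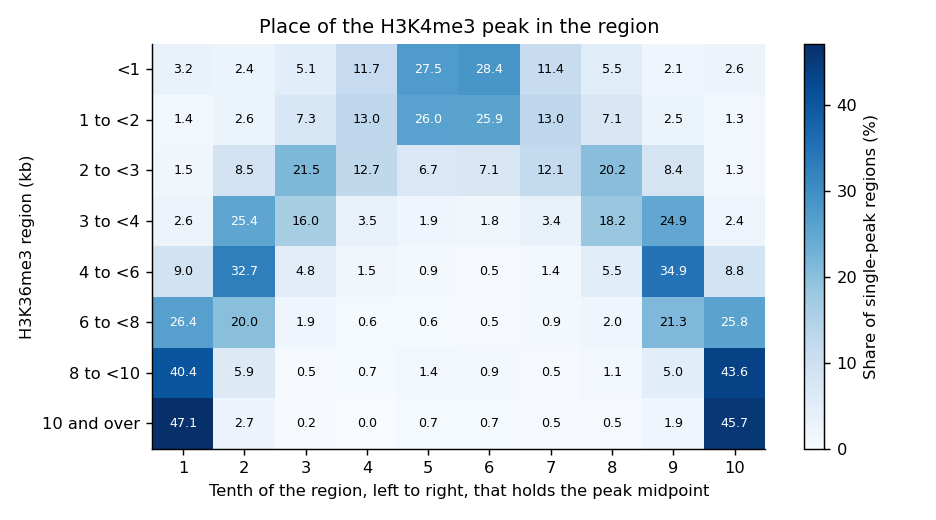
Share of single-peak H3K36me3 regions (%, colour and number) whose H3K4me3 peak midpoint lies in each step of 10% of the region (horizontal axis, left to right on the chromosome), by region length in kb (vertical axis, each row sums to 100). The 145 midpoints that lie outside their region are counted in the outermost steps. The peak sits in the centre of regions under 2 kb and at either end of regions over 4 kb.

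The longer reach pointed to the right of the chromosome map in 50.01% of single-peak regions (interval 49.3 to 50.7), and each length class was between 48.9% and 50.9%. Both directions were thus about equally frequent. The spread over chromosomes was small for the main values. The share of regions with a peak was 77.1% ± 1.70 (SD over 20 chromosomes), between 72.8% on Gm20 and 79.6% on Gm12. In single-peak regions of 3000 bp or more the median shorter reach was between 17 bp on Gm16 and 46 bp on Gm04, and the median longer reach between 2855 bp on Gm05 and 3196 bp on Gm20. The share of regions of 6000 bp or more with 2 or more peaks varied more, between 13.0% on Gm12 and 25.2% on Gm18, with 122 to 254 such regions per chromosome.

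The shorter reach differed little with peak length in long regions. With the 8647 single-peak regions of 3000 bp or more split by peak length, the median shorter reach was 48 bp beside peaks of up to 963 bp and 33 bp beside peaks of 1396 bp or more, and 35 and 33 bp in between. The region medians of these 4 sets were 4200 to 4400 bp. Over all 21179 single-peak regions the 4 medians were 5, 13, 10 and -23 bp, so beside the longest peaks the median was negative. A peak well inside its region was rare. A shorter reach over 500 bp was found in 542 single-peak regions (2.56%, interval 2.35 to 2.78), with 0.233% at 1000 to under 2000 bp and 8.22% at 8000 to under 10000 bp (interval 5.82 to 11.2). Regions under 1000 bp cannot have one, and those under 2000 bp have little room for it beside a peak. At 3000 bp or more the share was 5.16% (interval 4.70 to 5.65).

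Regions with 2 peaks were of several kinds, which were told apart by which of their 3 segments, left of the peaks, between them and right of them, exceeded 500 bp. The largest kind had the 2 peaks close together at 1 end (1149 of 3308, 34.7%, interval 33.1 to 36.4), with a median gap of 371 bp between them and a median longer outer reach of 1742 bp. By their definition these had the form of a single-peak region with its peak at 1 end, with 2 peaks in place of 1. In 718 regions no segment exceeded 500 bp, and these were short, with a median of 1600 bp. A peak at 1 end and another inside was seen in 670 (20.3%), and both peaks inside in 70 (2.12%). Peaks at opposite ends were seen in 624 (18.9%, interval 17.5 to 20.2), with the H3K36me3 between them.

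The distance between 2 peaks separated these kinds further in long regions. Over all 2-peak regions the median gap was 456 bp (interval 448 to 462), and 58.6% of gaps were under 500 bp (interval 56.8 to 60.2). Gaps under 500 bp were 495 of 660 at 1000 to under 2000 bp and 38 of 112 at 10000 bp or more (33.9%, interval 25.3 to 43.5). Where peaks lay at opposite ends, the median gap was 2839 bp at 4000 to under 6000 bp and 9516 bp at 10000 bp or more (this kind is defined by outer segments of at most 500 bp, which leaves the added length to the gap and the peaks). With the 2 peaks of each region sorted by length, which sets the order of the values, the medians were 848.5 bp for the longer and 339.5 bp for the shorter. Both medians were higher in regions of 10000 bp or more (1228 and 737 bp). Regions in which the peaks lay together and the H3K36me3 ran on for over 500 bp to both sides were nearly as rare as those with both peaks inside, with 77 of 3308 (2.33%), and they made up 9.82% at 10000 bp or more.

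The 2 longest 2-peak regions differed in where their H3K36me3 lay. In Gm06:22416601-22452000, of 35400 bp on LOC100791683, peaks of 193 and 260 bp stood 395 bp apart at 1 end and the region ran on for 34429 bp. In Gm15:75401-108800, of 33400 bp over 2 protein-coding genes, peaks of 1549 and 949 bp stood 702 and 102 bp from the ends and 30098 bp apart. By the limit of 500 bp it counts as a region with a peak at 1 end and another inside. The share of regions of 6000 bp or more with several peaks, 17.7%, depended on what was listed as a peak: it was 12.4% when peaks under 500 bp apart were joined, and 6.65% when the longer 50% of both lists was used.

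**Figure D4:**
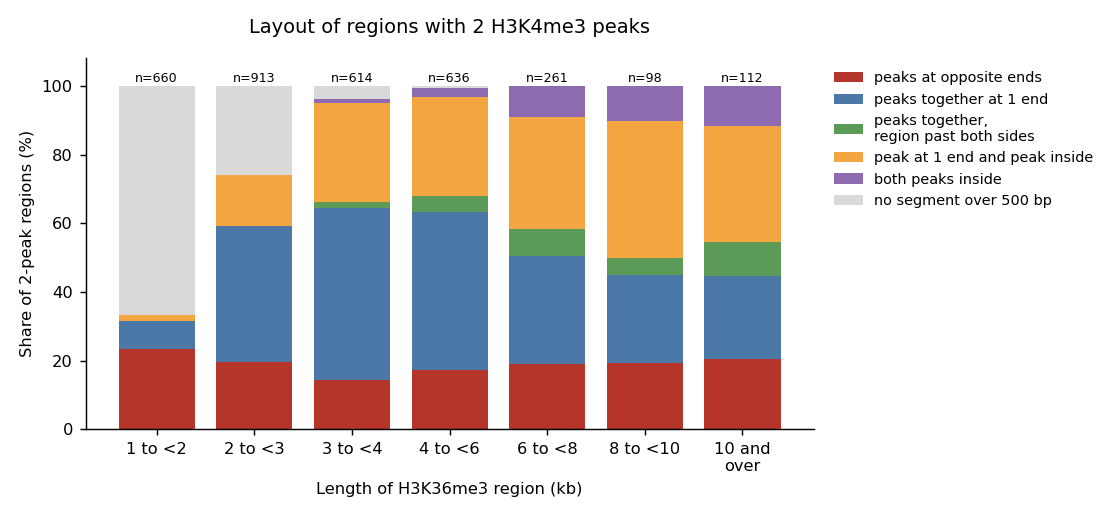
Share of 2-peak H3K36me3 regions (%, vertical axis) by the layout of their H3K4me3 peaks and by region length in kb (horizontal axis), with the number of regions above each bar. The 14 regions under 1 kb are left out. Peaks together at 1 end are the largest part at 2 to under 6 kb, 39.4% to 50.2%, and peaks at opposite ends hold between 14.3% and 23.5% of every bar.

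The 335 regions with 3 or more peaks had a median length of 4400 bp. Their shorter outer reach had a median of -7 bp and their longer outer reach one of 547 bp (quartiles 88.5 and 1654 bp), so peaks stood near both ends of many of them. In 59.7% the widest gap between peaks was longer than either outer reach (interval 54.2 to 65.0). The longest region with 4 peaks, Gm16:36299201-36311200, had no peak within 500 bp of either end. Its peaks of 1152, 1336, 1013 and 210 bp were spread over 12000 bp and 3 protein-coding genes, with outer reaches of 719 and 779 bp. The next longest, Gm05:35978401-35990000, held 4 peaks over 11600 bp and 2 genes, with outer reaches of 64 and 1143 bp. The longest with 3 peaks had most of their outer length on 1 side: Gm11:21287401-21306400, of 19000 bp, had outer reaches of 273 and 7329 bp, and Gm14:23570801-23588600, of 17800 bp on LOC100813857, had 44 and 11816 bp. A region of 13800 bp with 5 peaks, Gm06:14233001-14246800, also overlapped 3 genes, and its outermost peaks stuck out past both ends (reaches of -178 and -35 bp). The single region with 6 peaks, Gm20:35384401-35393200, overlapped 1 protein-coding gene (LOC100816990) and its peaks were 241 to 907 bp long. Coordinates are those of the lists, counted from 1, and no source used here names their genome build.

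Gene names came from a RefSeq gene table without strand, after a check of how far the table and the lists were in register. Regions with more peaks overlapped 2 or more protein-coding genes more often, although over all lengths most regions with several peaks lay over a single gene. There, 2 or more genes were overlapped by 2.93% of regions with 1 peak, 12.8% of those with 2 peaks and 31.6% of those with 3 or more. At 3000 to under 6000 bp the shares were 3.97%, 13.8% and 17.5%. Among regions of 6000 bp or more, 2 or more protein-coding genes were overlapped by 6.71% of those with 1 peak (interval 5.66 to 7.88), by 43.3% of those with 2 peaks (interval 38.8 to 47.9) and by 65.8% of those with 3 or more (interval 56.3 to 74.4). Within the 2-peak regions, 2 or more genes lay under 71.4% of those with both peaks inside (interval 59.4 to 81.6), under 58.4% of those whose peaks were together with H3K36me3 running past both sides (interval 46.6 to 69.6), and under 20.4% of those with a peak at 1 end and another inside. They lay under 17.5% of those with peaks at opposite ends and under 5.13% of those with both peaks at 1 end (interval 3.93 to 6.57). These kinds differed in region length too, with medians of 6800, 5800, 4000, 2800 and 3400 bp in the order given. Their shares were not split by length.

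Set against the gene itself, most regions of 2000 bp or more ended near the gene end on the peak's side and inside the gene on the long side. This was measured in regions with 1 peak and 1 protein-coding gene. In such regions of 4000 to under 6000 bp (2965 regions, median gene length 5738 bp), the region passed the gene end on the peak's side by a median of 113 bp (quartiles 17 and 198 bp), and 90.9% ended within 500 bp of it (interval 89.8 to 91.9). On the other side the gene went on for a median of 969 bp beyond the region, and 89.2% of the regions stopped inside the gene (interval 88.0 to 90.3). At 10000 bp or more the gene went on for a median of 1254 bp, and at 2000 to under 3000 bp for 994 bp. The stretch of gene beyond the region thus had a similar median in these classes, and it can hold further regions without a peak. Shorter regions fitted the gene end less closely on the peak's side: 46.4% of those under 1000 bp (interval 43.8 to 49.0) and 70.7% of those of 1000 to under 2000 bp (interval 69.4 to 72.0) ended within 500 bp of it. Relative to the gene end on that side, regions under 1000 bp ended at a median of -671.5 bp, where a negative value lies inside the gene. The lists are not known to use the build of the table, so these distances rest on their register.

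A region without a peak lay, in most cases, on a gene that also carried a region with one. Of the 7045 peakless regions that overlapped a protein-coding gene, 6589 (93.5%, interval 92.9 to 94.1) shared that gene with a region holding a peak. For regions with a peak, 6.62% of 23048 shared a gene with another region holding a peak (interval 6.30 to 6.95). Peakless regions were a median 1600 bp from the nearest region with a peak (quartiles 1000 and 4600 bp), against 5800 bp from a region with a peak to the next such region. The share on a gene with a peak elsewhere was 92.9% under 1000 bp and 96.8% at 10000 bp or more, so it held for long peakless regions too.

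Peakless regions close to a single-peak neighbour mostly stood on its long side. For 2124 of them the nearest neighbour was a single-peak region under 2000 bp away, with a longer reach over 500 bp and a shorter reach of at most 500 bp. In 95.3% of these pairs (interval 94.3 to 96.1) the peakless region lay beyond the longer reach of that neighbour and not beyond its peak. At neighbour distances of 2000 bp or more the share was 63.6% (interval 61.0 to 66.3, 1309 pairs). Over all 3433 pairs, at any distance, it was 83.2% (interval 81.9 to 84.5).

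Counted by gene, where exactly 1 of 3 or more H3K36me3 pieces held a peak, it was nearly always an outermost piece. Of 859 protein-coding genes with 3 regions, 732 had a peak in exactly 1 of them, and in 730 of these that region was the first or the last (99.7%, interval 99.0 to 99.97). Among 475 genes with 4 or more regions, 413 had a peak in exactly 1, which was the first or the last in 411 (99.5%, interval 98.3 to 99.9). With 3 regions all places but 1 are first or last, so position alone makes an outermost place frequent. A further 112 genes with 3 regions and 53 with 4 or more had a peak in at least 2 regions, and their places were not counted. Genes with 3 and with 4 or more regions were long, with medians of 11310 and 21226 bp, compared with 3832 bp for genes with 1 region.

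E2, GIGANTEA and PRR3A, among the listed clock genes, show this arrangement. The first, a GIGANTEA-type regulator of the clock and of flowering, carried 3 regions on Gm10. The outermost, Gm10:45369801-45382400, began 126 bp before its 1522 bp peak and ran on for 10952 bp, and 2 peakless regions of 1600 and 3200 bp followed, the last ending 18952 bp from the peak. Its paralogue GIGANTEA had 4 regions, of which the outermost held the peak with reaches of 133 and 289 bp, and peakless regions of 6600, 6000 and 3200 bp extended to 22489 bp from it. PRR3A, a pseudo-response regulator of the clock, had its peak in an outermost region of 1000 bp, with 4 peakless regions of 1600 to 8000 bp beyond it. In TOC1, another pseudo-response regulator, a region of 1800 bp with the peak was followed by a peakless one of 2000 bp. With 2 regions each is outermost by definition, so TOC1 does not bear on the place of the peak. In all 4 genes part of the H3K36me3 away from the peak was listed as regions of its own.

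Other listed genes held 1 peak in 1 or more regions as well. SRT4, of the sirtuin family of deacetylases, had a region of 3400 bp with reaches of -163 and 2319 bp, and 2 peakless regions ending 10119 bp from the peak. HEMG, an enzyme of chlorophyll and haem synthesis (protoporphyrinogen oxidase), had reaches of 215 and 6268 bp and a peakless region of 1400 bp beyond. FTRC, the ferredoxin-thioredoxin reductase, and PHYA, a phytochrome photoreceptor, each had 1 region. The reaches were -78 and 4477 bp in FTRC, whose region also overlaps LOC100500384, and -227 and 1921 bp in PHYA.

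**Figure D5:**
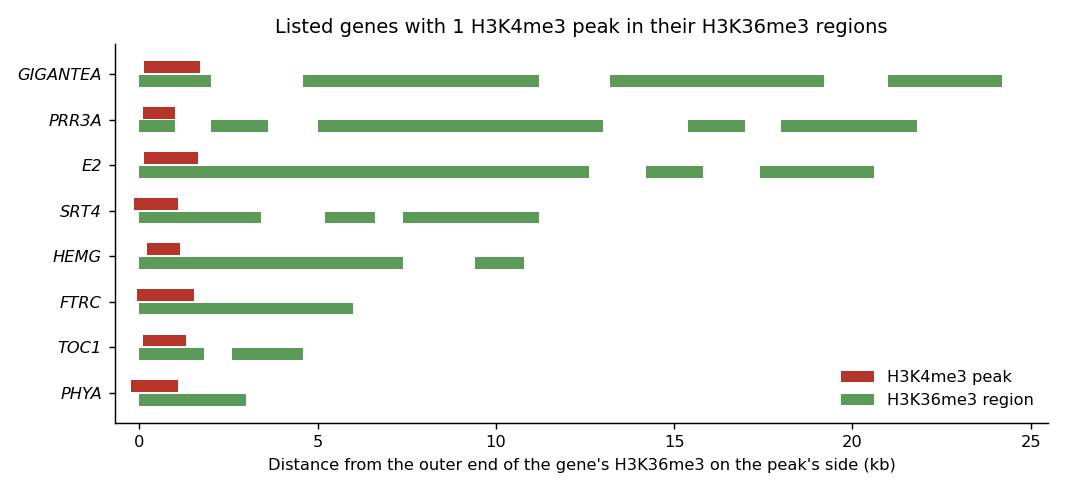
H3K4me3 peaks (red) and H3K36me3 regions (green) of the 8 listed genes that have exactly 1 peak in their regions, drawn to scale in kb from the outer end of the H3K36me3 on the peak's side, and turned so that the H3K36me3 runs to the right. The peak stands at the left end in all 8, and 6 of them have further regions without a peak, reaching 22489 bp beyond the peak in GIGANTEA. The turning puts the peak's side at the left. In genes with 1 or 2 regions (PHYA, FTRC, TOC1 and HEMG) the region with the peak is outermost by definition.

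Several listed genes departed from the single flush peak. LCL1, a MYB-type clock factor, had a region of 9000 bp with reaches of 44 and 8362 bp and a second, of 400 bp, with a peak of its own. In PHYB, a phytochrome gene, 3 regions held 0, 2 and 1 peaks, of 167 to 395 bp. E4, a phytochrome A gene, had 2 peaks at opposite ends of a region of 2800 bp, 1354 bp apart. HDA17, a histone deacetylase, shared a region of 11600 bp with a second gene: 2 peaks 409 bp apart had 1481 bp of H3K36me3 on one side and 7760 bp on the other. HDA9 had 2 regions with a peak each, but it overlaps other annotated genes there, so the peaks cannot be assigned to it. Of the 17 listed symbols E3 was not matched, and CAB3, a chlorophyll-binding protein gene, had no region.

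Listed genes of the Rubisco system had peaks that together spanned their regions. RCABETA, a Rubisco activase, carried peaks of 2396 and 2030 bp, 319 bp apart, which passed both ends of a region of 3600 bp (outer reaches of -270 and -875 bp). RBCS1, the small subunit of Rubisco, had peaks of 889 and 699 bp in a region of 1800 bp (outer reaches of -183 and 47 bp). The rule for the regions of 3000 bp or more with the most alike reaches named RCA03, another Rubisco activase, with a peak of 3013 bp in 3600 bp and reaches of 106 and 481 bp. It also named CEL8, whose peak of 4130 bp filled a region of 4200 bp, and BZIP105 and COL21, with peaks of 3095 and 2908 bp. In STV2A alone among these 5 the peak was of usual length, 1017 bp, and stood in the middle, with reaches of 1007 and 1176 bp.

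The longest reaches beyond a single peak were found along long genes. Among regions over 1 gene with its own symbol, ALDH5F2 (an aldehyde dehydrogenase) had a longer reach of 16417 bp and a shorter one of -41 bp. POLD1, a subunit of DNA polymerase delta, had 14577 and -63 bp, CYP59 13547 and 160 bp, and BZIP99 12005 and -13 bp. For NMHC5, a MADS-box gene, the values were 11290 and -244 bp, but 6347 bp of its region of 12400 bp lay on the gene. The longest single-peak regions of all, Gm11:2861201-2911200 and Gm07:2838801-2888400, had longer reaches of 49858 and 48691 bp, each over 1 gene known by a locus number (LOC100780088 and LOC102669841). The peak of the first was 148 bp long, close to the shortest in the list (147 bp), and that of the second 867 bp. The longest region without a peak was Gm16:279601-326600, of 47000 bp, followed by Gm07:41709601-41754600 (45000 bp) and Gm04:45167201-45199000 (31800 bp). Their nearest peaks were 6263, 9089 and 22229 bp away, and the gene under each also had a region with a peak.

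Gene groups named by symbol were described by the region that overlaps each member most. They were chosen with earlier results of these data known. Over all protein-coding genes with a region, 22959 such regions had 1 peak in 74.0%, 2 or more in 14.2% and none in 11.8%. Genes with a symbol of their own are the pool of these groups. Their 1039 such regions had 1 peak in 74.7%, 2 or more in 17.9% and none in 7.41%. A region was found on 51.1% of all protein-coding genes and on 44.3% of those with a symbol of their own. By group, it was found on 19 of 37 heat shock factor genes, 17 of 61 WRKY, 11 of 41 NAC and 30 of 69 MYB factor genes. The counts were 48 of 74 for bZIP factor genes and 53 of 59 for genes of the numbered CYP series. A region was also found on 23 of 24 histone deacetylase genes, 12 of 14 genes of 14-3-3 proteins and 24 of 26 phytochrome and clock genes. The counts below are of peaks in the region that overlaps the gene most. A gene counted with none can have a peak in another region, as GIGANTEA and PRR3A do. Of the 19 such regions on heat shock factor genes 18 had 1 peak and 1 had none. Among the 12 such regions on genes of 14-3-3 proteins, 6 had 1 peak and 6 had 2 or more. For phytochrome and clock genes, 16 of 24 such regions had 1 peak, 2 had more and 6 had none. For the numbered CYP series the counts were 35, 10 and 8 of 53. For histone deacetylases they were 16, 5 and 2 of 23, for bZIP factors 36, 11 and 1 of 48, and for MYB factors 20, 7 and 3 of 30. WRKY factors had 13, 3 and 1 of 17, and NAC factors 9, 2 and 0 of 11. Of the 5 listed photosynthesis genes 4 had a region, 2 of them with 1 peak and 2 with 2 peaks. The counts are small.

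Group medians of the shorter reach stayed near 0 while those of the longer reach spread widely. The median shorter reach in single-peak regions was between -58 bp for MYB factors and 68.5 bp for the 2 single-peak photosynthesis genes, with 54.5 bp for phytochrome and clock genes, beside 6 bp over all protein-coding genes. The median longer reach was 65.5 bp for MYB factors, 280 bp for NAC factors and 622 bp for WRKY factors. It was 1968 bp for bZIP factors, 2576 bp for the numbered CYP series and 3805 bp for histone deacetylases, beside 1463 bp over all. Over genes with a symbol of their own the median shorter reach was -4 bp and the median longer reach 1196.5 bp. In the 2 photosynthesis genes with a single peak, FTRC and HEMG, the median longer reach was 5372.5 bp. The other listed photosynthesis genes are not in that value. RBCS1 and RCABETA hold 2 peaks with no outer reach over 47 bp, and CAB3 had no region. The groups also differed in region length, with medians of 1600 bp for MYB factors and 4800 bp for histone deacetylases.

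Seen from the peaks, 28831 of 51142 H3K4me3 peaks (56.4%, interval 55.9 to 56.8) lay in a region, and 5 peaks, of 2606 to 3510 bp, joined 2 regions. The share in a region depended on peak length. It was 26.1% for peaks under 300 bp (interval 25.1 to 27.0), 47.4% at 600 to under 900 bp and 84.2% at 1200 to under 1500 bp (interval 83.4 to 85.0). Beyond that it was 77.9% at 1500 to under 2000 bp and 78.3% from 2000 bp on (interval 76.1 to 80.5), so the largest peaks were not the ones most often in a region. Peaks outside every region had a median length of 527 bp and lay a median 7845 bp from the nearest region (quartiles 3526 and 17441 bp). Of these, 5.13% were within 1000 bp of one.

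Acetylation of lysine 56 (H3K56ac) is a further mark profiled in the same tissue and not used to define these sets. It was frequent in regions with a single H3K4me3 peak and rare in those without one. An H3K56ac peak overlapped 97.8% of single-peak regions (interval 97.6 to 98.04) and 6.04% of regions without an H3K4me3 peak (interval 5.50 to 6.60). In single-peak regions of 10000 bp or more it lay in the same part of the region, left or right of its centre, as the H3K4me3 peak in 98.5% (interval 96.9 to 99.5) and in the opposite part in 6.30% (interval 4.15 to 9.09). At 2000 to under 3000 bp these shares were 94.0% and 8.76%.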

How the data were processed

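Of tools, SICER, MACS2, Bowtie2, Trimmomatic and Picard are listed, without version or role, per the submitters' processing notes. No source used here says which tool called which list, at what threshold, with which input or on which soybean build. The deposited files, 1 per sample, hold other values than signal: chromosome, start and end in bp. The H3K36me3 ends are the last base counted from 0, so 1 bp was added. Overlaps, lengths and distances were computed in Python 3.11.15 with pandas 2.3.3 and scipy 1.17.1, and the code was tested on simulated lists. The members, gene lists and length classes were chosen with earlier results of these data known. Genes were named by a rule: 17 listed symbols, the longest regions by number of peaks, the longest and the most alike reaches over 1 gene with a symbol, and the longest regions without a peak. LOC numbers are the table's symbols.

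Genes came from the RefSeq table of Glycine_max_v4.0, with 46816 protein-coding genes on the 20 chromosomes, 2348 of them with a symbol of their own. To test its register, H3K4me3 midpoints were counted within 500 bp of gene ends. These were 34.0% to 41.4% of midpoints per chromosome as listed, and at most 18.6% after a shift of 20 kb to either side. The table has no strand. Alternatives were another overlap rule, the longer 50% of each list, joined peaks or regions, the outer 25% at each chromosome end, and reach from the peak midpoint.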

Additional observations from a re-analysis of the deposited data

How the results depend on the processing

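With 1 library per mark, no paired analysis was possible because no group has a second replicate, and no replicate could be left out. Shares of regions with a peak (77.1%), of these with a single peak (85.3%), of peaks in a region (56.4%) and of regions of 6000 bp or more with several peaks (17.7%), and the median reaches (2 and 1196 bp), moved beyond their counting intervals as follows. With at least 50% of the peak inside the region, the first 3 shares were 76.4%, 85.8% and 55.6%. In the longer 50% of each list the 4 shares were 69.5%, 96.1%, 43.8% and 6.65% and the reaches 34 and 2561 bp, since short peaks and regions were dropped. Joining peaks under 500 bp apart gave 93.5% with a single peak and 12.4% of long regions with several. Joining regions under 1000 bp apart gave 82.7% with a peak, 83.6% with a single one, 22.8% of long regions with several and a longer reach of 1380 bp. In the outer parts of the chromosomes these 3 shares were 78.3%, 84.4% and 21.1%, and the longer reach 1148 bp. Measured from the midpoint of the peak the reaches were 590.5 and 1811 bp, which adds part of the peak. Depth limits all counts, since it is unknown.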

Other observations

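Neighbouring single-peak regions can be sorted by which ends face each other. Taken were 6497 pairs of adjacent regions on a chromosome, each with a single peak, a longer reach over 500 bp and a shorter reach of at most 500 bp. The peak ends faced each other in 2026 pairs (31.2%, interval 30.1 to 32.3), the longer reaches faced each other in 1316 (20.3%, interval 19.3 to 21.3), and in 3155 (48.6%) both ran in the same direction. Pairs with facing longer reaches were closer together, with a median gap of 6600 bp between regions (interval 6000 to 7600), against 10800 bp for facing peak ends (interval 10000 to 11800) and 9600 bp for the same direction. A gap under 2000 bp was found in 16.5% of pairs with facing longer reaches (interval 14.5 to 18.6), in 10.5% with facing peak ends and in 9.29% with the same direction. Regions closer than 800 bp are not in the list as separate regions, so pairs that would lie closer are not counted here. A pair with a region without a peak between its members is not adjacent and is left out too. Peakless regions under 2000 bp from such a neighbour lay on its longer-reach side in 95.3%, so pairs with facing longer reaches can be left out more often than the others, and the shares of the 3 kinds hold for adjacent regions alone.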
